A study of Homo sapiens with 6 samples.

Results

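The interleukin-6 (IL-6) family and its STAT3 axis were followed here as 10 genes given by symbol, out of 20802 genes measured: the cytokines IL6, LIF, IL11 and IL24, the receptor chains IL6R, IL6ST, LIFR and OSMR, the transcription factor STAT3 and its feedback inhibitor SOCS3. Cytokines of this family bind a ligand-specific receptor chain that pairs with gp130, the shared signalling chain encoded by IL6ST, and JAK kinases bound to gp130 then phosphorylate STAT3, which enters the nucleus and activates genes that include SOCS3. IL24 belongs to the IL-10 family and uses other receptor chains, but also signals through STAT3. In the mammary gland, LIF and STAT3 are known for their part in the involution that follows weaning.

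RNA came from MCF10A, an established benign human mammary epithelial cell line, in 3 groups of 2 libraries: the untransfected line (WT), cells stably transfected with the pIRES2eGFP plasmid (eGFP), and cells stably transfected with the same plasmid carrying the coding sequence of human GIRK1 ahead of eGFP (GIRK1, encoded by KCNJ3, a subunit of G-protein-activated potassium channels). Both transfected lines were kept under the antibiotic G418 and sorted for eGFP fluorescence, steps that WT cells did not pass through. Levels were read as counts of 1 short amplicon per gene (Ion AmpliSeq Transcriptome, from 10 ng of RNA) and are given as reads per 1000000 mapped reads (RPM). The deposit describes 2 lines of each kind where the methods describe replicates, so the p-values measure only the spread between these libraries, which may be technical.

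Library totals ranged from 2506120 reads (WT replicate 1) to 16040556 (WT replicate 2), so that 3 reads, the smallest count treated as measurable, stood for 0.187 to 1.20 RPM. KCNJ3 was listed at 0 in WT replicate 2 and both eGFP libraries and reached 217 and 355 RPM with GIRK1. Their average, 286 ± 98.0 RPM (SD, n = 2), was at least 489-fold higher than 3 reads in the shallower eGFP library. WT replicate 1 went against its label: KRT5, a basal keratin, stood at 0.798 RPM there against 3862 to 10660.2 RPM in the other 5 libraries, KRT14 and KRT17 were at 0, and the luminal genes ESR1 and TFF1, at 0 elsewhere, stood at 192 and 5106 RPM. It is therefore shown apart, and GIRK1 was compared with eGFP (2 against 2 libraries) and with 3 controls (eGFP replicates 1 and 2 and WT replicate 2). The basal markers KRT5, KRT14, KRT17, CDH3 and EGFR were present in these 5 libraries, while TP63 was listed at 0 in all 6. KRT17 was higher in GIRK1 (4.48-fold against eGFP, adjusted p = 0.00960 in edgeR). KRT5 and KRT14 went the other way against eGFP without passing in edgeR (log2 fold change -1.08, adjusted p = 0.168, and -0.59, 0.360). DESeq2 called KRT5 lower there, while CDH3 and EGFR were nearly level (0.10 each in edgeR). DCN among 5 fibroblast markers was also higher (27.0 and 25.2 RPM against 0.780 to 10.2 RPM in the 3 controls, 10.3-fold with an adjusted p of 0.0376 against eGFP in edgeR). Against the 3 controls DCN did not pass in edgeR (4.89-fold, adjusted p = 0.145), while DESeq2 called it higher in both comparisons. The summed level of the fibroblast list was 31.9 and 33.5 RPM in GIRK1 and 8.60 to 13.7 RPM in the controls, and DCN made up most of it in GIRK1. COL1A1 stood at 4.59 and 8.02 RPM in GIRK1 and 2.81 to 9.17 RPM in the controls. PDGFRB was lower in GIRK1 than in the controls at a few reads, LUM was at 0 in GIRK1, and COL3A1 was at 0 in these 5 libraries. The leukocyte list (PTPRC and CD3E at 0 in all 6) gave 30.8 to 34.8 RPM against 22.0 to 45.4 RPM. The summed basal list was 8907 and 9685 RPM in GIRK1 and 6764 to 12697 RPM in the controls, and the luminal list 389.9 and 408 RPM against 406 to 493 RPM. The part of these markers in the results was not tested, and in such bulk RNA fewer cells of a type cannot be told apart from less RNA per cell. The GIRK1 libraries also carry a different tag in their deposited names from the other 4; its meaning is not stated, and if it marks a run it cannot be told apart from the group.

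Promoter sequences from RefSeq (GRCh38.p14) were matched for 9 of the 10 genes and searched on both strands, over 250 bases before the start, for a STAT element (TTCNNNGAA, in 6.57% of all 35116 windows of that length), an IRF core (AANNGAAA, the core bound by interferon regulatory factors, 20.3%), an AP-1 site (TGANTCA, 6.57%), the NF-kB consensus (6.88%) and a TATA-like run (TATATA, 3.73%). The sequences of IL6R and IL24, which had an unadjusted p below 0.05 in both comparisons, and of IL6, the name-giving cytokine, are shown up to the nearest GENCODE exon, in lower case with the matches in capitals.
IL6R, chr1:154405093-154405192 (+ strand): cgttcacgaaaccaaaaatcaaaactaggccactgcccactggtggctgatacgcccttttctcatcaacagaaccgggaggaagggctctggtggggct
IL24, chr1:206897193-206897442 (+ strand): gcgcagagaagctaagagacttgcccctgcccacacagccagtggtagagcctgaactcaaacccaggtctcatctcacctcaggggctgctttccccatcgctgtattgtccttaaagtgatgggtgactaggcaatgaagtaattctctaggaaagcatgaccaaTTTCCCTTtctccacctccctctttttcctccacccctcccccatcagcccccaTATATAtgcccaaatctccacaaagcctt
IL6, chr7:22726950-22727146 (+ strand): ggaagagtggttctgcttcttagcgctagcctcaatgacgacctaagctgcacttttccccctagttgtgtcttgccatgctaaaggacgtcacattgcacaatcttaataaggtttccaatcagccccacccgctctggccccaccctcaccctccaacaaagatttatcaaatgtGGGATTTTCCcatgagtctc
The IL6R and IL24 runs end at the annotated start of the gene, and the IL6 run lies inside the annotated span of the gene but outside its exons. The IL6R window held none of these motifs over its 250 bases. It had 65.2% GC and 22 CpG dinucleotides, against medians of 58.0% and 11 over all windows. The IL24 window, with 51.6% GC and 2 CpG dinucleotides, held a TATA-like run and the reverse-strand form of the IRF core. The IL6 window, with 47.6% GC and 4 CpG dinucleotides, held the NF-kB consensus. IL11 had an AP-1 site, 2 IRF cores and a TATA-like run, and its GC content was 67.2%. Of the other genes matched, IL6ST, OSMR, STAT3 and SOCS3 held no match in any window, and a STAT element stood only in LIFR, in 2 of its 3 windows. These matches describe the letters and say nothing of binding.

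Of the 10 genes, 7 passed the filter on low counts: LIF, IL11, IL24, IL6R, IL6ST, OSMR and STAT3. IL6 and SOCS3 had too few reads, and LIFR had none in any library. With edgeR's quasi-likelihood test, 0 of the 7 passed an adjusted p of 0.05 in either comparison, beside 1.55% of the 11389 genes tested against eGFP (0.773% higher and 0.773% lower) and 1.21% against the 3 controls (0.799% higher and 0.413% lower). At an unadjusted p below 0.05, which 19.1% of genes met against eGFP and 18.7% against the 3 controls, IL6R and STAT3 were higher and IL24 lower against eGFP (background 8.24% higher and 10.9% lower), and IL6R higher and IL24 lower against the 3 controls (8.58% and 10.2%). DESeq2 called 1 of the 7 against eGFP, IL24, and 2 against the 3 controls, IL24 and IL6R, beside 5.92% and 7.01% of all genes tested. The median log2 fold change of the 7 genes was 0.11 against eGFP and -0.08 against the 3 controls, beside 0.01 and -0.01 over all genes tested. Both comparisons share the eGFP and GIRK1 libraries and are not independent.

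**Figure D1:**
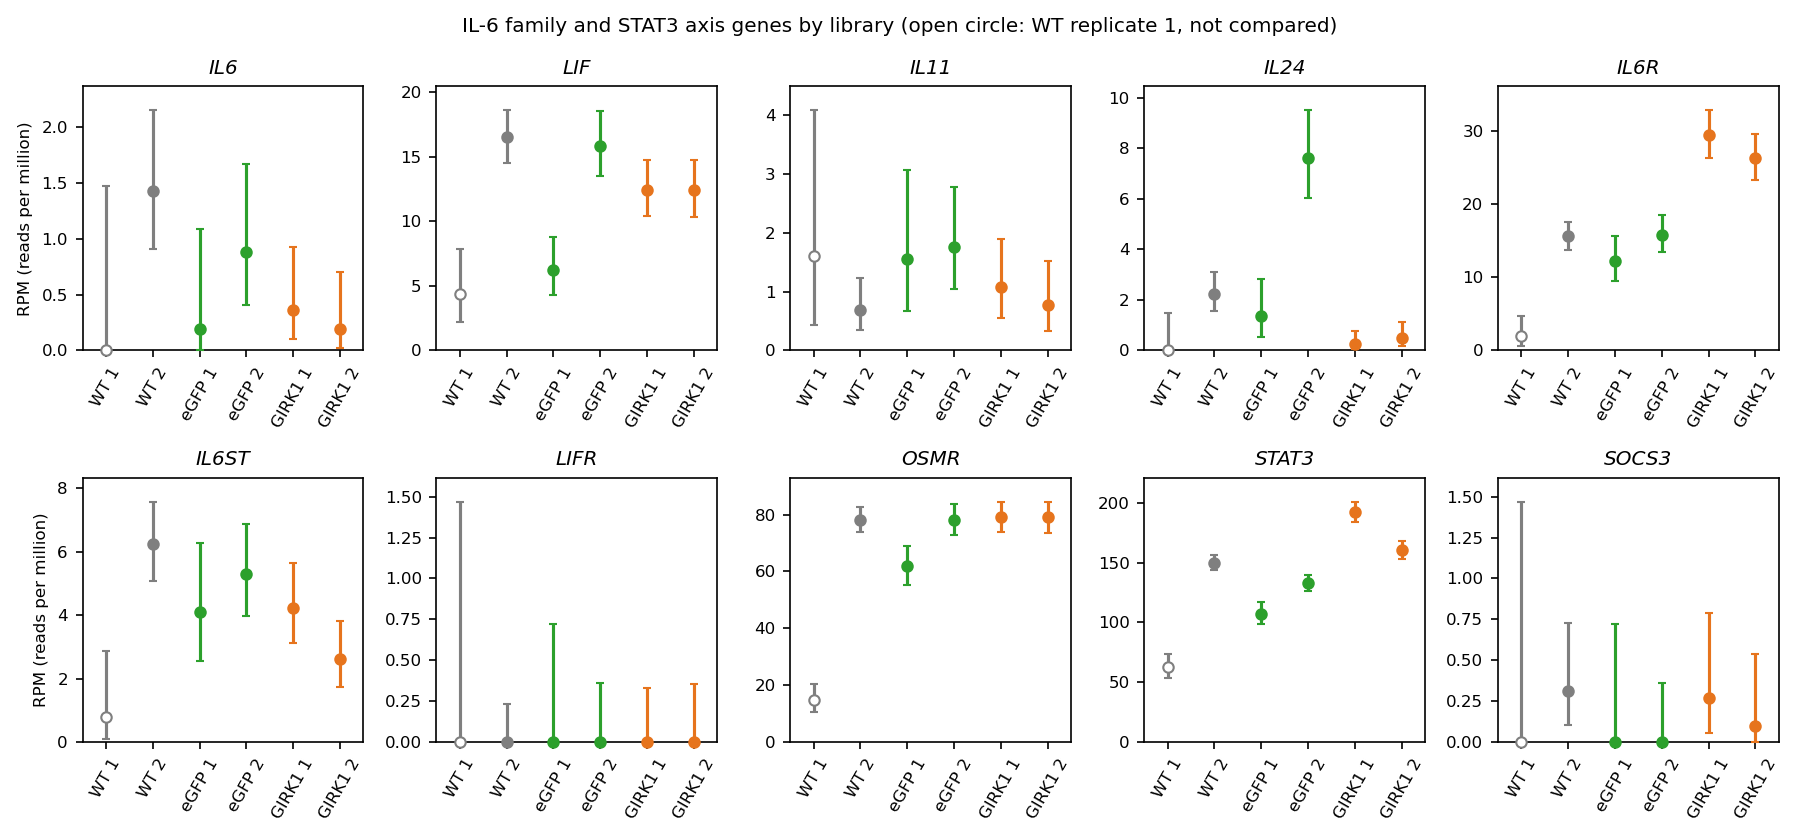
RPM of the 10 genes (y axis, linear, a separate scale per gene) in each of the 6 libraries (x axis); bars are exact 95% intervals that cover counting error only. IL6R stands at 29.5 and 26.3 RPM in GIRK1 and at 12.3 to 15.8 RPM in the 3 controls, IL24 is lowest in the GIRK1 libraries among the 5 compared, and the open circle marks WT replicate 1.

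IL6 (chromosome 7, 22725884 to 22732002, plus strand, GENCODE on GRCh38), the pro-inflammatory cytokine that gives the family its name, was low in all libraries. It had 23 reads in WT replicate 2 (1.43 RPM), 1 in eGFP replicate 1 (0.195 RPM), 9 in eGFP replicate 2 (0.879 RPM), and 4 and 2 in GIRK1 replicates 1 and 2 (0.360 and 0.193 RPM). The WT library was the highest and the GIRK1 libraries lay within the range of the eGFP libraries or just under it. The summed reads gave a GIRK1 to eGFP ratio of 0.430 (exact 95% counting interval 0.128 to 1.30) and a GIRK1 to WT replicate 2 ratio of 0.195 (0.0650 to 0.493). The eGFP to WT replicate 2 ratio was 0.454 (0.193 to 0.992), so the control groups themselves were apart by more than counting error. Fitted without the filter, IL6 had a log2 fold change of -1.10 (SE 1.07) against eGFP and of -1.69 (SE 0.90) against the 3 controls, with adjusted p-values of 0.682 and 0.406 in edgeR.

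LIF (chromosome 22, 30240447 to 30246851, minus strand), which signals through LIFR and gp130, was measured at 16.5 RPM in WT replicate 2, 6.24 and 15.8 RPM in eGFP, and 12.4 RPM in each GIRK1 library. The GIRK1 libraries were alike and lay between the eGFP libraries, which differed from each other 2.54-fold (counting interval 1.73 to 3.83). The log2 fold change was 0.11 (SE 0.40, adjusted p = 0.901) against eGFP and -0.08 (SE 0.37, adjusted p = 0.926) against the 3 controls, both with edgeR. Without eGFP replicate 1 the first of these became -0.34, and without eGFP replicate 2 it became 0.89, so its sign rested on a single library.

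IL11 (chromosome 19, 55364389 to 55370463, minus strand), a gp130 cytokine known in bone and stromal biology, had 0.686 RPM in WT replicate 2, 1.56 and 1.76 RPM in eGFP, and 1.08 and 0.773 RPM in GIRK1, from 8 to 18 reads each. GIRK1 lay under both eGFP libraries and above WT replicate 2. The log2 fold change was -0.87 (SE 0.56, adjusted p = 0.427, edgeR) against eGFP, and -0.48 (SE 0.60, adjusted p = 0.706) against the 3 controls.

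IL24 (chromosome 1, 206897443 to 206904139, plus strand), a cytokine known for growth-suppressive effects on tumour cells, had the fitted log2 fold change furthest from 0 of the 7 genes tested. It passed the filter only through the control libraries and has no value when at least 10 reads are asked of every library. It stood at 2.24 RPM in WT replicate 2 (36 reads), 1.36 RPM in eGFP replicate 1 (7 reads), 7.62 RPM in eGFP replicate 2 (78 reads), and 0.270 and 0.483 RPM in GIRK1 replicates 1 and 2 (3 and 5 reads). Both GIRK1 libraries were below all 3 controls, as were 19.5% of the genes tested, and the eGFP libraries differed from each other 5.58-fold (2.58 to 14.3). The fitted log2 fold change was -3.63 (SE 0.89, 95% interval -5.76 to -1.49, adjusted p = 0.110, edgeR) against eGFP and -3.32 (SE 0.90, -5.43 to -1.20, adjusted p = 0.132) against the 3 controls. The call depended on the setting: without eGFP replicate 1 the adjusted p was 0.00186 (log2 fold change -4.30) against eGFP and 0.0200 (-3.63) against the 3 controls. With replicate number blocked it was 0.0344 (-3.38) against eGFP, and without the filter it was 0.00595 (-3.62) against eGFP, all by edgeR. The genes called lower in these 4 fits were 3.56%, 4.37%, 2.89% and 3.63% of those tested. Without eGFP replicate 2 the log2 fold change against eGFP was -1.93, and over all alternatives its adjusted p ran from 0.00186 to 0.918. DESeq2 gave an adjusted p of 0.00983 against eGFP and of 0.0107 against the 3 controls.

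IL6R (chromosome 1, 154405193 to 154469450, plus strand), the ligand-specific chain that binds IL-6, was measured at 15.6 RPM in WT replicate 2, 12.3 and 15.8 RPM in eGFP, and 29.5 and 26.3 RPM in GIRK1. The 3 controls lay close together and both GIRK1 libraries were above all of them, as were 21.6% of the genes tested. The fold change was 1.92 (log2 0.94, SE 0.25; 95% interval of the fold 1.28 to 2.90) against eGFP and 1.88 (log2 0.91, SE 0.19; 1.37 to 2.59) against the 3 controls, with adjusted p-values of 0.123 and 0.0812 in edgeR. The GIRK1 libraries differed from each other 1.12-fold (counting interval 0.954 to 1.32), and the eGFP to WT replicate 2 ratio was 0.940 (0.781 to 1.13). Without eGFP replicate 2 the difference from eGFP passed (log2 1.08, adjusted p = 0.0185, with 11.7% of all genes called higher). Without eGFP replicate 1 the difference from the 3 controls passed (log2 0.85, adjusted p = 0.0224, with 4.24% called higher). DESeq2 gave 0.00611 against the 3 controls (2.95% called higher) but 0.119 against eGFP. No other alternative called IL6R in either comparison. With all 6 libraries its adjusted p against eGFP was 0.942, and with WT replicate 1 added to the controls it was 0.775 (edgeR). Without GIRK1 replicate 1 or 2 its log2 fold change was 0.88 and 1.01 against eGFP, and 0.85 and 0.98 against the 3 controls. Forward reads made up 56.1% and 58.8% of the IL6R reads in GIRK1, 38.1% and 38.9% in eGFP and 50.4% in WT replicate 2; the part of this in the difference was not tested.

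IL6ST (chromosome 5, 55935095 to 55994993, minus strand), encoding gp130, stood at 6.23 RPM in WT replicate 2, 4.10 and 5.28 RPM in eGFP and 4.23 and 2.61 RPM in GIRK1. GIRK1 replicate 1 lay between the eGFP libraries and GIRK1 replicate 2 below them. The log2 fold change was -0.50 (SE 0.42, adjusted p = 0.548, edgeR) against eGFP and -0.64 (SE 0.36, adjusted p = 0.384) against the 3 controls. Its direction was therefore opposite to that of IL6R in both comparisons, with neither past the threshold; the difference between the genes was not tested.

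OSMR (chromosome 5, 38845858 to 38945596, plus strand), the oncostatin M receptor chain, stood at 78.2 RPM in WT replicate 2, 61.8 and 78.0 RPM in eGFP and 79.0 RPM in each GIRK1 library. GIRK1 was above all 3 controls, but only just over WT replicate 2 and eGFP replicate 2. The log2 fold change was 0.14 (SE 0.20, 95% interval -0.34 to 0.61, adjusted p = 0.734, edgeR) against eGFP and 0.10 (SE 0.16, adjusted p = 0.774) against the 3 controls. LIFR (chromosome 5, 38474963 to 38608354, minus strand), the LIF-specific chain, was listed at 0 in all 6 libraries, so its count was under the 3-read limit in each. The exact 95% upper limits for its level were 0.230 RPM in the deepest library and 1.47 RPM in the shallowest.

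STAT3 (chromosome 17, 42313324 to 42388568, minus strand) stood at 149.8 RPM in WT replicate 2, 107 and 133 RPM in eGFP, and 192 and 160.4 RPM in GIRK1. Both GIRK1 libraries were above all 3 controls, GIRK1 replicate 2 only narrowly so over WT replicate 2. The fold change was 1.43 (log2 0.51, SE 0.21, adjusted p = 0.253, edgeR) against eGFP and 1.34 (log2 0.42, SE 0.18, adjusted p = 0.277) against the 3 controls. Without eGFP replicate 2 the difference from eGFP passed (log2 0.61, adjusted p = 0.0433), as it did for 11.7% of all genes in that direction. The GIRK1 libraries differed from each other by 1.20-fold (counting interval 1.12 to 1.28), and the eGFP libraries by 1.23-fold (1.12 to 1.37).

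SOCS3 (chromosome 17, 78356778 to 78360077, minus strand), the feedback inhibitor induced by STAT3, had 5 reads in WT replicate 2, 0 in both eGFP libraries, and 3 and 1 in GIRK1. These counts are too few for a fold change, and no difference was detectable at this depth. For the counts of 0 in eGFP, the limit of 3 reads stood at 0.585 RPM in replicate 1 and 0.293 RPM in replicate 2, and the exact 95% upper limits plotted at 0.720 and 0.360 RPM.

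**Figure D2:**
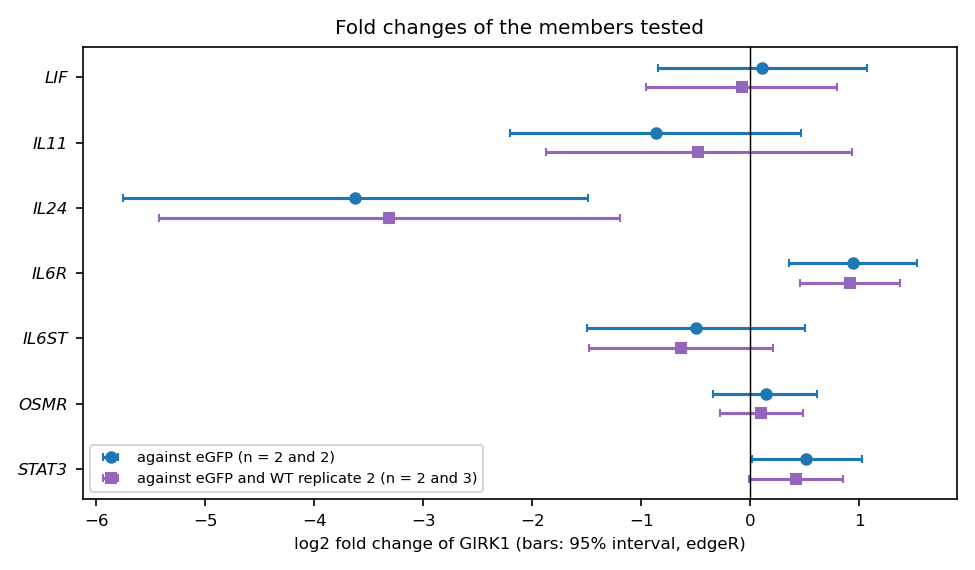
Log2 fold change of GIRK1 (x axis) for the 7 genes tested (y axis), against eGFP (circles) and against the 3 controls (squares), with 95% intervals from edgeR. The intervals of IL24 and IL6R exclude 0 in both comparisons before adjustment, STAT3's excludes it only against eGFP (0.01 to 1.02), and 0 of the 7 have an adjusted p below 0.05.

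The study defined differential expression by a 2-fold difference of means together with a limit of 0.7 on the coefficient of variation. Applied to RPM in both groups, this rule called 0 of the 10 genes, beside 8.79% of the 14893 genes with a read in GIRK1 or eGFP (4.21% higher and 4.58% lower). Genes without a read in a group, as SOCS3 and LIFR in eGFP, could not be called. IL6R was just short of it with a ratio of 1.99, and IL24, 11.9-fold lower in GIRK1, had a coefficient of 0.985 in eGFP. With the population SD in the coefficient, IL24 alone was called.

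Among 57 other genes of the pathway, 55 had an amplicon (CTF1 and SOCS1 did not) and 43 passed the filter. Against eGFP, 1 of the 43 was higher by edgeR and 0 lower (background 0.773% each way), with 6 higher and 7 lower at an unadjusted p below 0.05 (background 8.24% and 10.9%). DESeq2 called 1 higher and 3 lower (1.99% and 3.92%). Against the 3 controls the edgeR counts were 1 and 0 (background 0.799% and 0.413%), with 5 higher and 5 lower unadjusted (8.58% and 10.2%). There DESeq2 called 1 higher and 3 lower (2.95% and 4.06%). The higher gene was STAT2, a transcription factor of interferon signalling. STAT2 stood at 28.2, 30.0 and 30.7 RPM in the 3 controls and averaged 129.8 ± 18.5 RPM (SD, n = 2) in GIRK1, rising 4.15-fold against eGFP (95% interval 2.88 to 5.99, adjusted p = 0.0120, edgeR) and 4.32-fold against the 3 controls (adjusted p = 0.00284). Its control libraries lay close together and well below GIRK1, and with all 6 libraries in the fit, including WT replicate 1, it did not pass against eGFP (adjusted p = 0.602). STAT5A, a STAT known for its part in milk protein expression, had 0.935 RPM in WT replicate 2, 2.15 and 1.37 RPM in eGFP and 1.26 and 0.387 RPM in GIRK1, from 4 to 15 reads each, with a log2 fold change of -1.07 (adjusted p = 0.451) against eGFP.

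In the lists of cytokines, receptor chains, kinases and negative regulators no gene passed by edgeR or by DESeq2 in either comparison. At an unadjusted p below 0.05 against eGFP, IL11RA, JAK1 and PIAS1 were higher and IL27RA and PTPN1 lower, of which PIAS1 was named after its values were seen. Of 2 tested cytokines of the gp130 group, EBI3, a subunit of IL-27, had 1.08 and 1.55 RPM in GIRK1 (12 and 16 reads), 0.499 RPM in WT replicate 2 (8 reads), 0.879 RPM in eGFP replicate 2 (9 reads) and 5 reads in eGFP replicate 1 (log2 0.48 against eGFP, adjusted p = 0.695), and CLCF1 had a log2 fold change of -0.93 (adjusted p = 0.465). Of the receptor chains, IL11RA, the IL-11 binding chain, was at 8.10 and 7.34 RPM in GIRK1 and 3.32 to 4.12 RPM in the 3 controls (log2 1.16 against eGFP, adjusted p = 0.162). IL27RA stood at 6.93 and 8.21 RPM in GIRK1 against 13.0 and 18.7 RPM in eGFP and 7.86 RPM in WT replicate 2 (log2 -1.10, adjusted p = 0.156). Of the chains that IL24 uses, IL20RB was nearly level, at 193 and 194 RPM in GIRK1 and 157 to 185 RPM in the controls (log2 0.14, adjusted p = 0.747), and IL20RA had at most 22 reads in a library. The kinases JAK1 (log2 0.66, adjusted p = 0.160), which was above all 3 controls at 76.8 and 77.4 RPM against 42.3 to 66.5 RPM, and TYK2 (-0.58, adjusted p = 0.341) had no adjusted p below 0.05. Nor did the negative regulators PTPN1, a phosphatase (-0.66, adjusted p = 0.178), and PIAS3, an inhibitor of STAT3 binding (-0.62, adjusted p = 0.345). Without eGFP replicate 2 the adjusted p of IL27RA was 0.0103, of JAK1 0.0206, of TYK2 0.0111, of PTPN1 0.0205 and of PIAS3 0.0267 (edgeR, against eGFP). Each of these calls therefore rested on leaving out that library, without which 25.3% of all genes tested were called (11.7% higher and 13.6% lower).

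Of 24 genes known as STAT3 targets, 18 passed the filter and 0 passed an adjusted p of 0.05 by edgeR in either comparison. Against eGFP, 2 were higher and 5 lower at an unadjusted p below 0.05, against 8.24% and 10.9% of all genes tested, and DESeq2 called 3 lower in each comparison, beside 3.92% of all genes against eGFP and 4.06% against the 3 controls. Named after their values were seen, the unadjusted ones were FGG and SERPINA3 above and BIRC5, FOS, HIF1A, MCL1 and MYC below. SERPINA3 stood at 73.6 and 55.2 RPM in GIRK1, with WT replicate 2 between them at 60.5 RPM. Its unadjusted p against the 3 controls was 0.167 (edgeR). DESeq2 called BIRC5 and HIF1A in both comparisons, MCL1 against eGFP and MYC against the 3 controls. Both GIRK1 libraries lay below all 3 controls for 6 of the 18 and above them for 1 (BCL6, a transcriptional repressor), against 19.5% and 21.6% of all genes tested. The median log2 fold change of the list was -0.31 in both comparisons, and its summed level was 2034 and 2043 RPM in GIRK1 and 2506 to 2861 RPM in the 3 controls. Abundant genes weigh most in this sum: MYC averaged 404 RPM in GIRK1 and 611 RPM in the 3 controls, and MCL1 222 and 377 RPM. BIRC5, which encodes survivin, an inhibitor of apoptosis, was at 39.5 and 39.7 RPM in GIRK1, 81.7 and 149 RPM in eGFP and 78.7 RPM in WT replicate 2 (log2 -1.60 against eGFP, adjusted p = 0.0840, edgeR). It passed against eGFP without eGFP replicate 1 (log2 -1.03, adjusted p = 0.0101), without eGFP replicate 2 (-2.01, 6.80e-05), with replicate number blocked (-1.52, 0.0250), without the filter (-1.59, 0.00213) and by DESeq2 (-1.61, 5.36e-04). It did not pass against eGFP with all 6 libraries (adjusted p = 0.898, edgeR). Nor did it without GIRK1 replicate 1 (log2 -1.59) or without GIRK1 replicate 2 (-1.61). Against the 3 controls it did not pass in the fit reported (log2 -1.42, adjusted p = 0.110, edgeR). There it passed in edgeR without the filter (adjusted p = 0.0393), with replicate number blocked (0.0276) and without eGFP replicate 1 (0.00371). No other edgeR alternative called BIRC5 against the 3 controls. FGG, a fibrinogen chain, was at 1.35 and 1.71 RPM in GIRK1 (14 and 19 reads) and 2.31 RPM in WT replicate 2. In eGFP it was at 0.195 and 0.391 RPM (1 and 4 reads), the first under the 3-read limit. FGG in GIRK1 lay within the range of the controls (log2 2.20 against eGFP, adjusted p = 0.160, edgeR).

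**Figure D3:**
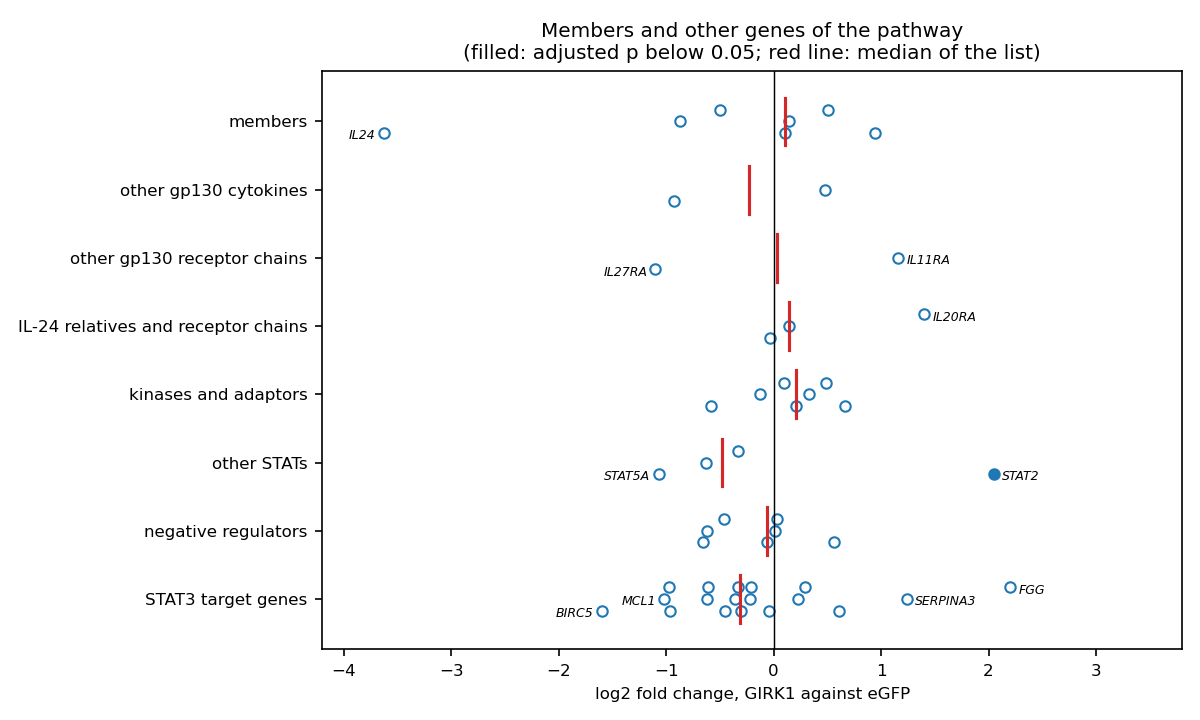
Log2 fold change of GIRK1 against eGFP (x axis) for each gene tested in the 7 other lists and the members (y axis), with the median of each list as a red line. The filled point, STAT2 among the other STATs, has an adjusted p below 0.05, while IL24 at -3.63 is the lowest.

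Genes whose pattern over the 5 libraries was closest to that of IL6 were SYCE3, CCDC110, ATP8B2, LIPE and NOS1AP, with root mean square differences of centred log2 values from 0.21 to 0.32 among 11389 genes. IL6 itself had at most 23 reads in a library, so the list is a description of 5 points.

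WT replicate 1 lay below the 5 other libraries beyond the counting intervals for 3 of the 10 genes, IL6R, OSMR and STAT3, as it did for 9.17% of all genes measured. STAT3 stood at 62.6 RPM there, OSMR at 14.8 RPM, LIF at 4.39 RPM, IL6R had 5 reads and IL6ST stood at 0.798 RPM, while IL24 and IL6 had no read. At 1.20 RPM for 3 reads, those zeros were not resolved from the low levels elsewhere. IL11 had 4 reads (1.60 RPM), inside the range of the other libraries. Adding WT replicate 1 to the controls called 0 of the 7 genes, with a log2 fold change of 1.25 for IL6R, and left 9 genes called in all, beside 91 higher and 47 lower without it.

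**Figure D4:**
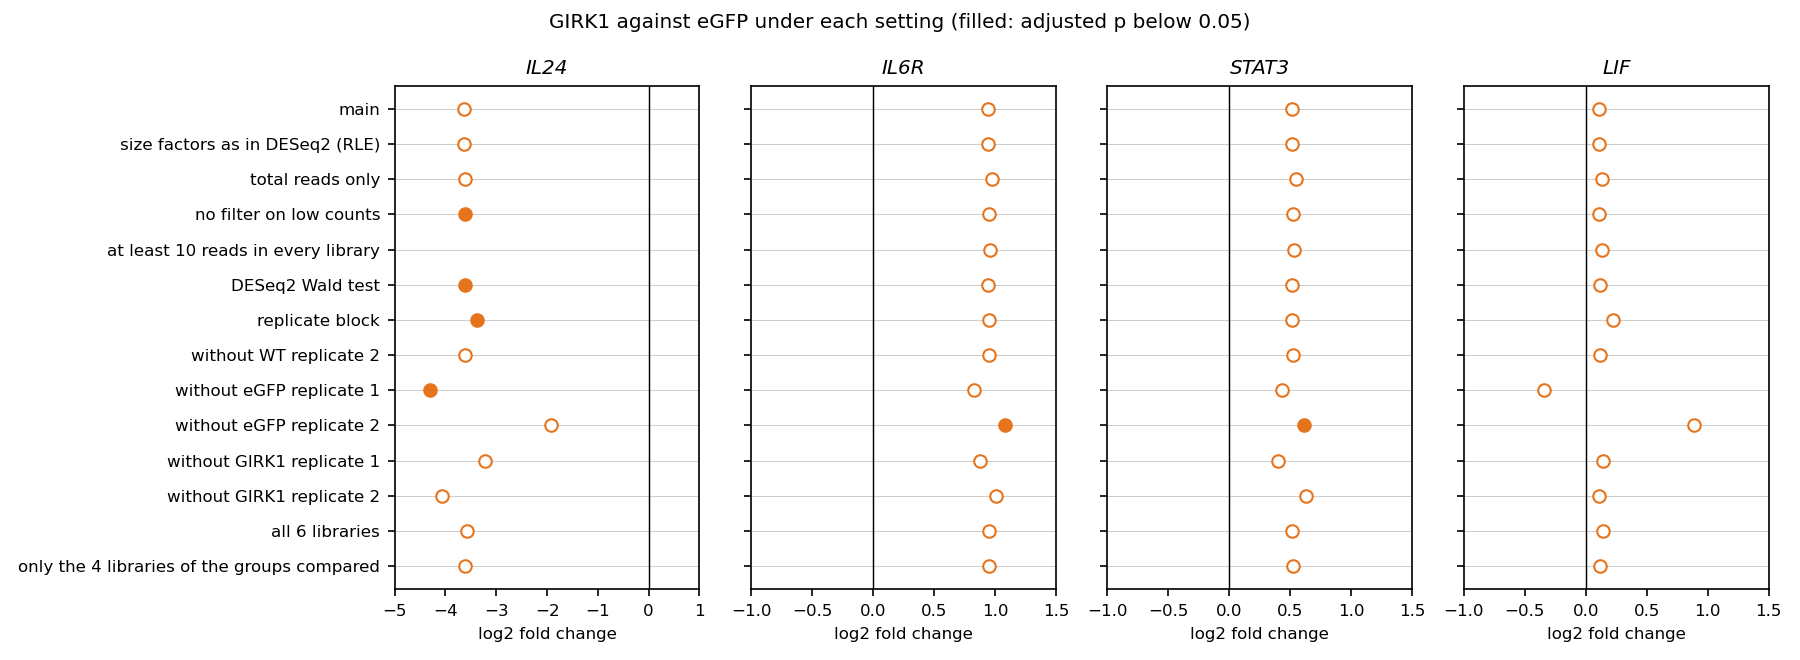
Log2 fold change of GIRK1 against eGFP (x axis) for IL24, IL6R, STAT3 and LIF under each setting (y axis), filled where the adjusted p is below 0.05. IL24 is filled in 4 settings and runs from -4.30 to -1.93, IL6R and STAT3 are filled only without eGFP replicate 2, and LIF runs from -0.34 to 0.89.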

How the data were processed

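RNA was measured in 6 libraries (3 groups of 2) with the Ion AmpliSeq Transcriptome kit on an Ion S5 XL sequencer. The authors mapped reads to AmpliSeq_Transcriptome_21K.v1 with the Ion Torrent suite and deposited whole-number read counts per amplicon. The deposited RPM values are those counts scaled to each library's total, which was checked for every gene. How reads of near-identical copies were assigned is not given in the sources used here, and an amplicon reports 1 part of a transcript, so isoforms were not told apart and a transgene not from the endogenous gene. The forward and reverse read counts that the authors deposited gave the forward share; the other deposited columns (position, length and GC score of the amplicon) described the amplicons only.

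Libraries were grouped by the genotype in the labels. Of 20812 amplicons, 10 synthetic control amplicons (0 reads) were left out. Counts of 5 libraries (WT replicate 1 left out) were tested with edgeR 4.0.16 in R 4.3.3: TMM normalization, filterByExpr with GIRK1 and controls as the groups for both comparisons (11389 genes), glmQLFit and glmQLFTest, and Benjamini-Hochberg adjustment over all genes tested, with a threshold of 0.05. Standard errors came from the F value. DESeq2 1.42.0 was an alternative. The procedure was run on simulated counts with the same spread in every group. In the real data the SD of the log2 ratio was 0.675 between the eGFP libraries and 0.357 between the GIRK1 libraries. That run therefore does not measure how far calls depend on a single library. Counting intervals are exact (95%), and with 3 reads as the limit of detection they cover counting error only. Gene positions are from GENCODE release 29. The promoter motifs were settled after the sequences had been searched once, when an interferon element was replaced by the shorter IRF core and a fixed NF-kB sequence by the NF-kB consensus. Some listed genes are not reported here and were left out of the lists and their counts. The 10 genes and all lists were chosen with earlier results of these data known. Genes named were the 10 members, KCNJ3, pathway genes past the threshold, the 2 genes of each list furthest from 0 against eGFP, and the 5 most like IL6; KRT17, DCN and the other marker genes were named as list members. The alternatives were other normalizations and filters, DESeq2, the replicate number as a block, other library sets, leaving out each replicate and other forms of the fold rule; IL6 and SOCS3 without the filter were added after the data were seen.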

Additional observations from a re-analysis of the deposited data

Results flagged for a closer look

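WT replicate 1, which entered no comparison, held signal above all 3 controls for 9 genes outside the main measurement: KCNJ3 at 19.2 RPM (0 in the controls), ESR1 at 192 RPM, GATA3 at 982 RPM, FOXA1 at 671 RPM, KRT8 at 3288 RPM, KRT18 at 2492 RPM, KRT19 at 924 RPM, TFF1 at 5106 RPM and PGR at 62.6 RPM. ESR1, KRT19, TFF1 and PGR were at 0 in the 3 controls, and KRT18 reached 392 RPM there at most. In the same library 14 of the 55 pathway genes measured lay above all 3 controls beyond the counting intervals, as did 16.4% of all genes measured, among them CCND1 at 789 RPM (at most 114 RPM in the controls), CISH, a STAT-induced inhibitor, at 21.1 RPM (at most 4.88 RPM) and JAK2 at 15.6 RPM (at most 3.55 RPM). No member of the 10 did so.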

How the results depend on the processing

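Of the values of named genes under the alternatives, 470 kept their direction and their side of the threshold, 24 passed it in addition, 3 no longer passed and 14 changed sign. Leaving out WT replicate 2 in either comparison and keeping only the GIRK1 and eGFP libraries are the same fit. Its values enter this count more than once, so the alternatives are not separate checks. The share of tested genes called against eGFP was 1.55%, and became 5.69% without a filter, 1.07% with at least 10 reads in every library, 5.92% by DESeq2, 4.51% with the replicate block, 0% with all 6 libraries (611 genes at an unadjusted p below 0.05, edgeR) and 0.799% to 25.3% when leaving out 1 replicate (25.3% without eGFP replicate 2). Members called against eGFP became 1 without a filter, by DESeq2 and with the replicate block (IL24 each time), and 0 to 2 when leaving out 1 replicate. Against the 3 controls, the share of 1.21% became 2.46% without a filter, 7.01% by DESeq2, 4.90% with the replicate block, 0.0790% with WT replicate 1 added and 0.167% to 8.61% when leaving out 1 replicate (0.167% without GIRK1 replicate 2, 8.61% without eGFP replicate 1); members called became 2 by DESeq2 and 0 to 2 when leaving out 1 replicate. The fold rule called 1 member with the population SD, and needs 2 replicates, so it has no values without 1. The cause of these changes was not tested.

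In log2 fold change, LIF ran from -0.34 to 0.89 against eGFP and from -0.36 to 0.12 against the 3 controls when leaving out 1 replicate, with sign changes without eGFP replicate 1 against eGFP (-0.34) and, against the 3 controls, without WT replicate 2 (0.12) or eGFP replicate 2 (0.07), with the replicate block (0.12) and with WT replicate 1 added (0.19). IL20RB against eGFP ran from -0.01 to 0.31. Against the 3 controls, leaving out 1 replicate, IL20RA (0.00 in the fit reported) ran from -0.87 to 1.40, CLCF1 from -0.92 to 0.41 and TYK2 from -0.58 to 0.00; IL20RA was -0.14 with the block, 0.00 with DESeq2 size factors and -0.07 with WT replicate 1 added. STAT2 no longer passed against the 3 controls without GIRK1 replicate 2 (adjusted p = 0.0693, edgeR) or with WT replicate 1 added (0.116).

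The replicate numbers are not stated to pair the libraries. The replicate differences of eGFP and GIRK1 correlated at 0.194 across 9288 genes, which are not independent, over 2 pairs. Without a replicate a lone library is assumed to vary like the other groups. Depth limits IL6, SOCS3, IL11 and LIFR.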
